A study of Mus musculus with 8 samples.

Results

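The 7 genes Foxa1, Foxa2, Foxa3, Hnf4a, Hnf4g, Hhex and Onecut1 encode transcription factors of endoderm and liver outside the GATA and SOX families. They were picked by symbol from the 46078 Ensembl gene IDs counted and selected on their counts across the 4 groups, which were already known, so their values below, and which of them lie past a limit, describe the libraries and are not independent tests. FOXA proteins are forkhead factors that can bind DNA in closed chromatin and open it for other factors. HNF4A and HNF4G are nuclear receptors that drive lipoprotein, clotting factor and glucose metabolism genes in liver, gut and kidney, HHEX is a homeodomain factor of foregut and anterior visceral endoderm, and ONECUT1, also known as HNF6, acts in liver and pancreas. In the embryo this circuit works first in the visceral endoderm of the yolk sac, which makes plasma proteins before the liver does. Hnf4a is also expressed in kidney tubules, Foxa2 in notochord and floor plate, and Hhex in embryonic stem cells (ESCs).

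RNA-sequencing was carried out on 8 libraries of male (XY) mouse cells of the C57BL/6 strain, in 4 groups of 2. The tcESCs are ESCs that carry the tesco-cfp transgene, in which an enhancer of Sox9 active in the testis drives a cyan fluorescent protein (CFP). The tc;Sf1ESCs (genotype XY;tesco-cfp;Sf1) are 1 clone of these cells, selected with G418, with a constitutive transgene for Sf1, the nuclear receptor gene whose official symbol is Nr5a1. The SCLCs, named Sertoli cell-like cells in the study and testicular somatic cell-like cells in the sample labels, are the CFP-positive cells sorted at day 12 of differentiation of the tc;Sf1ESCs, so they share that clone and the tesco-cfp transgene. The cultures received the WNT activator CHIR99021 and the retinoic acid receptor agonist TTNPB, followed by CHIR99021, BMP7 and FGF9. The ESCs were maintained with LIF, CHIR99021 and another inhibitor. The todPGCLCs are primordial germ cell-like cells of an XY;Prdm1-gfp ESC line, sorted at day 6 from testicular organoids in which their epiblast-like precursors were aggregated with cells differentiated from tc;Sf1ESCs. Their sort is stated as GFP with SSEA1 in one place and as GFP with CD49f in another. Their precursors were made with bFGF and activin A, and the organoids were cultured with CHIR99021. The Prdm1-gfp ESCs themselves were not analysed here, so in comparisons with todPGCLCs the cell type, the line and the culture cannot be told apart, nor can the Sf1 transgene in that of SCLCs with todPGCLCs.

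The libraries held between 25411033 and 30680191 counts on genes, at which 3 counts correspond to 0.0978 to 0.118 CPM, the read count scaled to the library total. This limit covers counting error only. Nr5a1 had 0.0394 and 0 CPM in tcESCs, 2.01 and 1.08 in tc;Sf1ESCs, 12.9 and 18.4 in SCLCs and 0.218 and 0.188 in todPGCLCs, in the direction of the labels. Relative to sampling noise the SCLC pair differed most: chi-square divided by its degrees of freedom was 30 there, against 9.8 in todPGCLCs, 3.9 in tcESCs and 1.42 in tc;Sf1ESCs. Of 16 Sertoli cell markers, 12 were tested, and 10 were called higher in SCLCs than in tc;Sf1ESCs by edgeR's quasi-likelihood test (fold above 2 and adjusted p under 0.05). In this contrast 24.1% of all genes tested were called higher. The following 3 defining markers, chosen after their values were seen, were not among the 10: Fshr had 0 CPM in both SCLC libraries, Dhh 0.189 and 0.0344 CPM against 0.424 and 0.867 in tc;Sf1ESCs, and Amh 0.377 and 0.756 CPM against 0.656 and 0.867. Of the 10, Wt1 (2.26 and 0.791 CPM in SCLCs) had a log2 fold change of 1.925, and of 1.006 without SCLC replicate 1. Wt1 did not pass a test against a 2-fold change, and Cldn11 was not called with DESeq2. The germ cell gene Prdm1 had 179 and 194 CPM in todPGCLCs and at most 23.9 CPM elsewhere, while the pluripotency gene Nanog had 940 and 979 CPM in tcESCs and 69.3 and 21.3 CPM in SCLCs.

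The promoters of the members with the highest levels in SCLCs, Foxa2, Hnf4a and Foxa3, are printed below to show where in these genes recognition words of the same circuit lie. RefSeq start sites on GRCm38.p6 were found for 6 of the 7 genes, with 3 for Foxa2, 2 for Hnf4a and 1 each for the others. Hnf4a has an upstream start (chr2:163506607-163506810, plus strand) and a downstream start within the same gene (chr2:163546943-163547154, plus strand), Foxa2 is shown at its outermost start (chr2:148046970-148047219, minus strand), and Foxa3 at its single start (chr7:19023540-19023789, minus strand). Capitals mark matches to the ONECUT word ATTGATT or the GATA word AGATAA on either strand, and lines are shortened where an annotated exon lies in the window. The line of the upstream Hnf4a start ends 3 bases inside such an exon, and the others shown hold no exon base and end at the start site.
Foxa2 outermost start: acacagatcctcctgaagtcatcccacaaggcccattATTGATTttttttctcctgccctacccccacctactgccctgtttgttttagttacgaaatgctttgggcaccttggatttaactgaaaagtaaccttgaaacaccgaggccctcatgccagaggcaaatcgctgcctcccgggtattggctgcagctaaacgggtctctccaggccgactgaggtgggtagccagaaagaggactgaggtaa
Hnf4a upstream start: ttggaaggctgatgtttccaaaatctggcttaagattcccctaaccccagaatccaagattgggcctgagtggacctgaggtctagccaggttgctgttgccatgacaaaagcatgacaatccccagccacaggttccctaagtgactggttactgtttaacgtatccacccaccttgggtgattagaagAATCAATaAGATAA
Hnf4a downstream start: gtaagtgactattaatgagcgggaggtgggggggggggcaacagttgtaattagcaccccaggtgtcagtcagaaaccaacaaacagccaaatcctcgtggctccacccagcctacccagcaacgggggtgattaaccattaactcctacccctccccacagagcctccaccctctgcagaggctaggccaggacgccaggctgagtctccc
Foxa3 start: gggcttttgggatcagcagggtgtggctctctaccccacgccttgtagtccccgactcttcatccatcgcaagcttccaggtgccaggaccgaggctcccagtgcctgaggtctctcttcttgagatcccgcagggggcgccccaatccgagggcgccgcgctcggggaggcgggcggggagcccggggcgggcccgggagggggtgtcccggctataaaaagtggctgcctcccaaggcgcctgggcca
The upstream Hnf4a promoter held an ONECUT word at 60 to 54 bases and a GATA word at 52 to 47 bases before the RefSeq start, and the 2 words do not overlap. The outermost Foxa2 promoter held an ONECUT word at 213 to 207 bases, and a GATA word lay 183 to 178 bases before another Foxa2 start. In Foxa1 a forkhead word (TGTTTAC) lay 141 to 135 bases before the start. Within the 250 bases before each of 32817 RefSeq starts, the forkhead word was present in 3.16%, the ONECUT word in 2.61% and the GATA word in 9.99%. The words for HNF4 (CAAAGTCCA, 0.384% of promoters) and NR5A (CAAGGTCA, 1.33%) were not in the windows of these 6 genes. Such matches describe letters, not binding, and the counts sum both Hnf4a starts, so that the start in use cannot be read from them.

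Foxa2 was almost silent in ESCs and strongly expressed in SCLCs. Foxa2 (ENSMUSG00000037025, chromosome 2, 148042877 to 148046969) is the FOXA gene of early endoderm, node and floor plate. It had 0.197 and 0.456 CPM in tcESCs, 0.501 and 0.108 CPM in tc;Sf1ESCs, 61.1 and 51.2 CPM in SCLCs and 2.72 and 7.15 CPM in todPGCLCs. Both SCLC libraries lay above all others, both todPGCLC libraries lay between them and the ESCs, and the ESC lines overlapped, with 3 to 14 reads per library.

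Foxa3 (ENSMUSG00000040891, chromosome 7, 19013284 to 19023538), the family member of liver, gut and testis, was the main FOXA transcript of the ESCs. It had 0.708 and 0.978 CPM in tcESCs, 0.926 and 0.976 CPM in tc;Sf1ESCs, 9.89 and 9.56 CPM in SCLCs and 1.198 and 1.81 CPM in todPGCLCs. The SCLC libraries differed from each other by less than for the other 5 members detected there and lay clear of the rest, whereas the ESC lines overlapped.

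Foxa1 (ENSMUSG00000035451, chromosome 12, 57540628 to 57546916), which overlaps in function with Foxa2 in liver and gut, had another order. Its level was 0.315 and 0.163 CPM in tcESCs, 0.386 and 0.614 CPM in tc;Sf1ESCs, 1.25 and 1.93 CPM in SCLCs and 2.72 and 5.99 CPM in todPGCLCs. Foxa1 was thus highest in todPGCLCs, above SCLCs in each library, and its SCLC values rest on 33 and 56 reads.

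**Figure D1:**
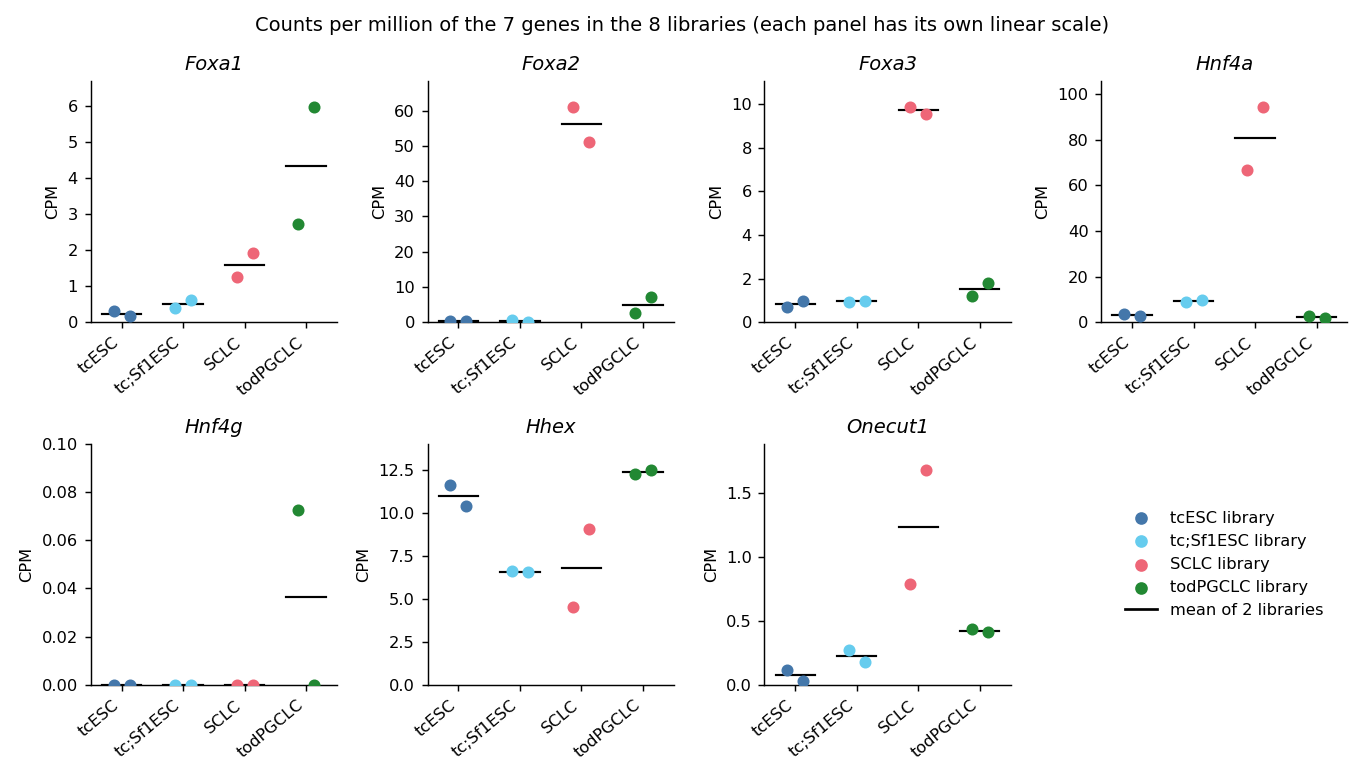
CPM (vertical axes, linear from 0, one scale per panel) of the 7 genes in the 8 libraries, with 1 point per library and a line at the mean of each group of 2. Foxa2, Foxa3, Hnf4a and Onecut1 are highest in SCLCs, Foxa1 is highest in todPGCLCs, the 2 SCLC libraries of Hhex (4.53 and 9.04 CPM) lie on both sides of the tc;Sf1ESC libraries, and Hnf4g stays at 0 except for 2 reads in 1 todPGCLC library.

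On a scale that corrects for gene length (TPM), the FOXA mixture changed as well as its amount. Of the summed FOXA TPM, Foxa3 held 66.2% and 66.5% in the libraries of the unmodified line. In those of the Sf1 clone it held 58.1% and 67.5%. In SCLCs Foxa2 made up 83.1% and 80.4%, Foxa3 15.7% and 17.4%, and Foxa1 1.21% and 2.15%. In todPGCLCs Foxa1 took 32.03% and 31.5%, above both SCLC libraries, and Foxa2 took 44.96% and 52.9%. The ESC shares rest on few reads, and the tc;Sf1ESC share of Foxa2 was 27.1% in one library and 6.45% in the other.

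**Figure D2:**
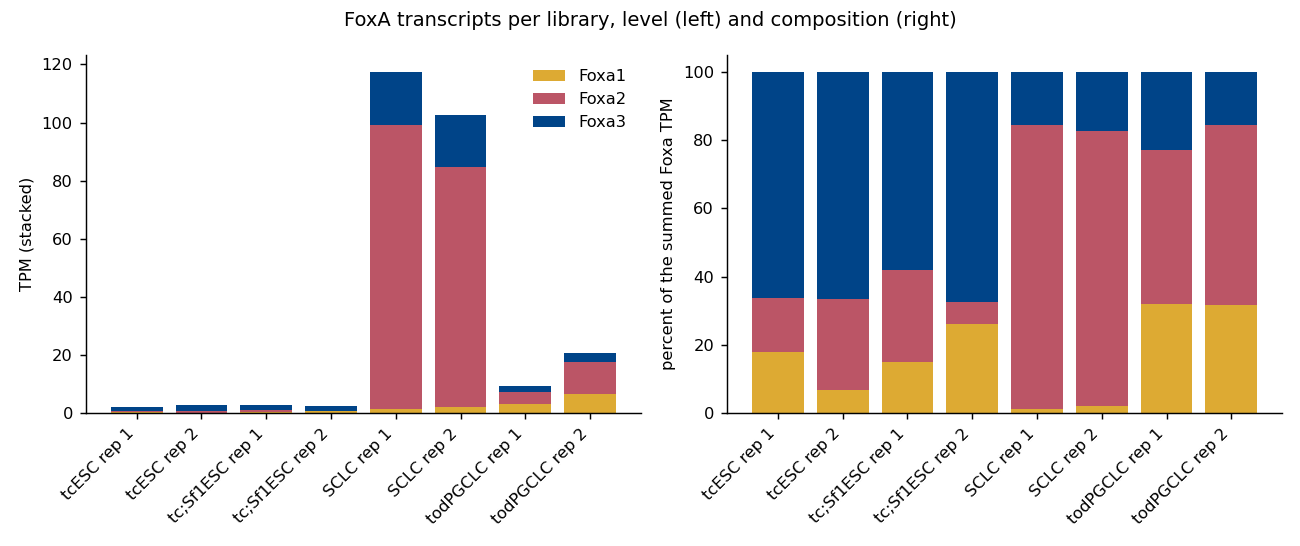
Stacked bars of Foxa1, Foxa2 and Foxa3 in each library, as TPM (left, from 0) and as percent of their sum (right). Foxa2 holds 83.1% and 80.4% of the sum in the SCLC libraries and Foxa3 at least 58.1% in the ESC libraries, where the sums are small.

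Hnf4a was higher in the Sf1 clone than in its parent line and higher again in SCLCs. Hnf4a (ENSMUSG00000017950, chromosome 2, 163506808 to 163572910) had 3.38 and 2.67 CPM in tcESCs, 8.99 and 9.58 CPM in tc;Sf1ESCs, 66.9 and 94.5 CPM in SCLCs and 2.65 and 1.73 CPM in todPGCLCs. No library of the tc;Sf1ESCs overlapped with the tcESCs or the SCLCs, and both todPGCLC libraries lay below the tcESCs, the closest pair being 2.65 and 2.67 CPM. An antisense gene at the same place, Hnf4aos, had 0 to 2 reads per library, and the strand setting of the counting is not stated. Its paralog Hnf4g (ENSMUSG00000017688, chromosome 3, 3508030 to 3658052), an HNF4 form of gut and kidney, had 2 reads in todPGCLC replicate 1 and 0 in the other 7 libraries. In each SCLC library a count of 0 allows up to 3 reads, or 0.113 and 0.103 CPM, so Hnf4g was not detectable in SCLCs at this depth.

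Hhex was not highest in SCLCs, whereas Onecut1 was highest there at a low level. Hhex (ENSMUSG00000024986, chromosome 19, 37434810 to 37440731) had 11.6 and 10.4 CPM in tcESCs, 6.60 and 6.54 CPM in tc;Sf1ESCs, 4.53 and 9.04 CPM in SCLCs and 12.3 and 12.5 CPM in todPGCLCs. It was the only member detected in SCLCs with both SCLC libraries below both tcESC libraries. Onecut1 (ENSMUSG00000043013, chromosome 9, 74861921 to 74891781) had 3 and 1 reads in tcESCs, 7 and 5 in tc;Sf1ESCs, 21 and 49 in SCLCs and 12 and 11 in todPGCLCs. These are 0.118 and 0.0326, 0.270 and 0.181, 0.792 and 1.68, and 0.436 and 0.414 CPM, so the groups were ordered without overlap at a level near the limit of detection.

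Set side by side in TPM, the SCLC levels were 90.1 ± 10.7 (SD, n = 2) for Foxa2, 63.6 ± 15.7 for Hnf4a, 18.2 ± 0.350 for Foxa3, 5.11 ± 2.42 for Hhex, 1.81 ± 0.558 for Foxa1 and 1.15 ± 0.589 for Onecut1. The libraries of neighbours in this order did not overlap from Foxa2 to Foxa1, while Foxa1 (1.42 and 2.21 TPM) and Onecut1 (0.730 and 1.56 TPM) overlapped. In tcESCs the first was instead Hhex at 8.01 ± 0.743 TPM, followed by Hnf4a at 2.31 ± 0.413 and Foxa3 at 1.52 ± 0.325. In bulk RNA, fewer cells of a type and less RNA per cell cannot be told apart, and this holds for each level given here.

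Against the parent clone, the day 12 cells differed in 5 of the 6 members that passed the filter of a mean count above 10, and Hnf4g did not pass it. The log2 fold changes of SCLCs over tc;Sf1ESCs were 7.58 for Foxa2 (SE 0.36, 192-fold), 3.40 for Foxa3 (SE 0.22), 3.17 for Hnf4a (SE 0.19, 9.004-fold), 2.50 for Onecut1 (SE 0.56) and 1.70 for Foxa1 (SE 0.42, 3.26-fold). Hhex had a log2 fold change of 0.10 (SE 0.30) and overlapping libraries. Of all 16481 genes tested, 42.2% passed both limits (fold above 2, adjusted p under 0.05) and 24.1% passed them as higher and 18.1% as lower in SCLCs, and the members were chosen with this contrast known. Foxa1, Foxa2 and Onecut1, with a mean of at most 10 reads over the 4 ESC libraries, passed the filter only through their SCLC reads, so that the count of members past the limits supports nothing beyond the levels given. The size for Foxa2 depended on the few ESC reads, with 8.96 without tc;Sf1ESC replicate 1 and 6.83 without tc;Sf1ESC replicate 2. Foxa1 no longer passed without tc;Sf1ESC replicate 1 or in a test against a 2-fold change itself. Without SCLC replicate 2 Onecut1 fell under the filter and was not tested, and Hhex was at -0.49.

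Against the unmodified tcESCs, which share the SCLC libraries with the contrast above, 5 of 6 members again lay past both limits as higher, where 42.7% of all genes passed, 24.3% as higher and 18.3% as lower. The log2 fold changes were 7.42 for Foxa2 (SE 0.35), 4.81 for Hnf4a (SE 0.21, 28.0-fold), 3.57 for Foxa3 (SE 0.22) and 2.81 for Foxa1 (SE 0.47). For Onecut1 the summed reads gave a ratio of 17.7 with a 95% counting interval of 6.60 to 66.6. Hhex was at -0.63 (SE 0.29), and without SCLC replicate 2 it was at -1.22 and past both limits as lower, while Onecut1 was then under the filter. The fitted log2 fold change of Onecut1 was 4.10, and it was 5.13 without tcESC replicate 1 and 3.40 without tcESC replicate 2. Foxa2 was at 8.17 without tcESC replicate 2.

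Between the ESC lines Hnf4a was the 1 member of 6 past both limits, at a log2 fold change of 1.64 in tc;Sf1ESCs over tcESCs (SE 0.22, 3.11-fold). It remained between 1.46 and 1.81 with any 1 library of these lines left out, and it did not pass a test against a 2-fold change itself. In this contrast 11.7% of genes passed, 6.04% as higher and 5.63% as lower. The other values were 1.10 for Foxa1 (SE 0.54), 0.17 for Foxa3 (SE 0.26), -0.16 for Foxa2 (SE 0.68) and -0.73 for Hhex (SE 0.29), and the summed reads of Onecut1 gave a ratio of 3.14 (counting interval 0.952 to 13.4). The fitted log2 fold change of Onecut1 was 1.60, and it was 2.64 without tcESC replicate 1 and 0.91 without tcESC replicate 2. Hhex was lower in both tc;Sf1ESC libraries than in both tcESC libraries, whereas the signs for Foxa2 and Foxa3 changed with the library left out. The tc;Sf1ESCs are 1 clone, so that the transgene and the clone cannot be told apart.

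**Figure D3:**
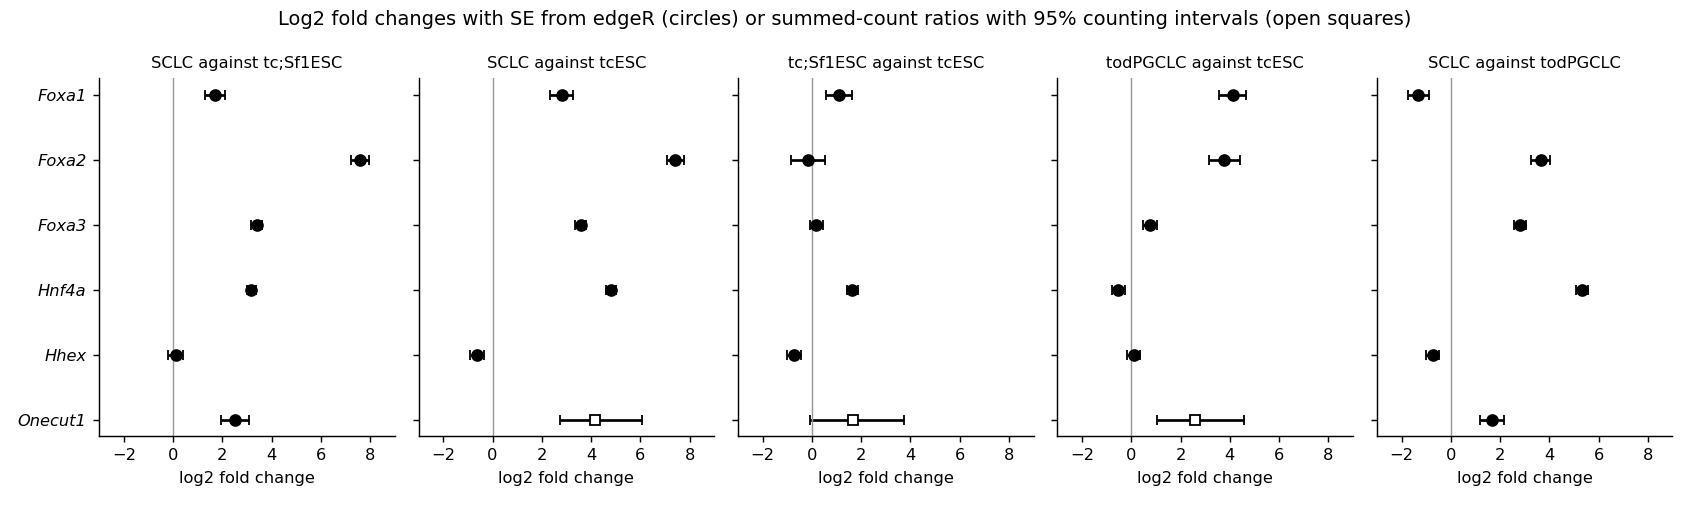
Log2 fold changes (horizontal axes) of the 6 members that passed the filter in 5 comparisons, with circles and SE bars from edgeR and, for Onecut1 against tcESCs, open squares with 95% counting intervals of summed reads. Foxa2 has the largest values in both comparisons of SCLCs with ESCs (7.58 and 7.42), Hnf4a in the comparison with todPGCLCs (5.33), and Foxa1 lies on the other side of 0 there (-1.31).

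In todPGCLCs Foxa1 and Foxa2 were above their tcESC levels, whereas Hnf4a was not. Over tcESCs the log2 fold changes were 4.12 for Foxa1 (SE 0.55, 17.4-fold), 3.78 for Foxa2 (SE 0.62, 13.7-fold), 0.74 for Foxa3 (SE 0.29), -0.53 for Hnf4a (SE 0.28) and 0.10 for Hhex (SE 0.26). The ratio of summed Onecut1 reads was 5.96 (counting interval 2.04 to 23.7). Foxa1, Foxa2 and Onecut1 were the 3 of 6 members past both limits, where 29.4% of 16707 genes passed, 18.1% as higher and 11.2% as lower. Without todPGCLC replicate 2 the values were 3.46 for Foxa1 and 2.93 for Foxa2. Without tcESC replicate 2 Foxa2 was at 4.49, and without todPGCLC replicate 1 Foxa3 was at 1.02 and past both limits. Onecut1 fell short without tcESC replicate 2 or either todPGCLC library, and in a test against a 2-fold change itself. It was under the filter without SCLC replicate 2 and with only the 4 libraries compared. Its fitted log2 fold change was 2.42, and it was 3.42 without tcESC replicate 1 and 1.69 without tcESC replicate 2.

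Set against each other, SCLCs had the higher level for Hnf4a (log2 fold change 5.33, SE 0.24, 40.2-fold), Foxa2 (3.64, SE 0.39), Foxa3 (2.83, SE 0.25) and Onecut1 (1.68, SE 0.47), and todPGCLCs for Foxa1 (-1.31, SE 0.42). These 5 of 6 members lay past both limits, where 38.0% of genes passed, 19.5% as higher and 18.5% as lower in SCLCs. Hhex was at -0.73 (SE 0.27). Without todPGCLC replicate 2 the value of Foxa1 was -0.65 and neither it nor Onecut1 passed, while Foxa2 was at 4.49. Foxa1 also fell short without SCLC replicate 1, and Onecut1 without todPGCLC replicate 1 and with DESeq2. Without SCLC replicate 2 Onecut1 was under the filter, and Hhex was at -1.31 and past both limits as lower.

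Hhex and Onecut1 differed most between the SCLC libraries. The ratio of CPM in replicate 2 to that in replicate 1 was 2.13 for Onecut1 (95% counting interval 1.28 to 3.54), 1.996 for Hhex (1.61 to 2.48), 1.55 for Foxa1 (1.005 to 2.38) and 1.41 for Hnf4a (1.33 to 1.499). For Foxa3 it was 0.967 (0.817 to 1.14), and for Foxa2 0.839 (0.782 to 0.900). These intervals cover counting error only, not the spread between cultures. Among the ratios of all genes in this pair, Foxa2 lay at percentile 23.6, Hnf4a at 88.3, Foxa1 at 91.4, Hhex at 96.2 and Onecut1 at 97.0, and 9.55% of genes had a ratio above 1.5. The median ratio was 1.71 over 26 hepatic target genes, of which 20 were higher in replicate 2, 1.61 over visceral endoderm markers, 1.51 over trophectoderm markers and 1.42 over definitive endoderm and gut markers. It was 1.04 over GATA and SOX factors, 1.10 over the other hepatic and endoderm factors, 1.08 over Sertoli cell markers, 1.14 over kidney markers, 0.887 over notochord and floor plate markers (0 of 4 higher in replicate 2), 0.686 over ESC markers, 0.587 over markers of primordial germ cells (PGCs) and 0.998 over 16217 genes with a mean count above 10 in SCLCs. What these lists contribute to the members' ratios was not tested.

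In todPGCLCs Foxa1 and Foxa2 differed most between the libraries. The ratio of replicate 2 to replicate 1 was 2.63 for Foxa2 (2.01 to 3.43) and 2.20 for Foxa1 (1.67 to 2.89), against 1.51 for Foxa3 (0.968 to 2.35), 1.02 for Hhex (0.875 to 1.19), 0.951 for Onecut1 (0.419 to 2.15) and 0.653 for Hnf4a (0.452 to 0.945). Among all genes in this pair Foxa2 lay at percentile 99.4, Foxa1 at 98.75 and Hnf4a at 5.56, and 5.46% of genes had a ratio above 1.5. Several marker lists were higher in replicate 2 as well, with 6 of 6 notochord and floor plate markers (median ratio 2.004), 11 of 14 definitive endoderm and gut markers (1.59), 4 of 5 GATA and SOX factors (1.43), 13 of 16 visceral endoderm markers (1.19) and 8 of 10 trophectoderm markers (1.16). Over 16491 genes with a mean count above 10 in todPGCLCs, 49.55% were higher in replicate 2, with a median ratio of 0.9985. Within the notochord list the ratios ran from 1.03 for Ntn1 to 3.87 for Shh. The signal gene Shh had 1.89 and 7.30 CPM and the notochord factor gene T (brachyury) 10.4 and 27.0 CPM. The anterior endoderm gene Cer1, named after its values were seen, had 2.65 and 12.7 CPM and Sox17 3.34 and 10.6 CPM. The median ratio was 0.999 over 14 hepatic target genes, 1.03 over PGC markers and 0.963 over ESC markers, and whether the marker genes and the forkhead genes come from the same cells was not tested.

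**Figure D4:**
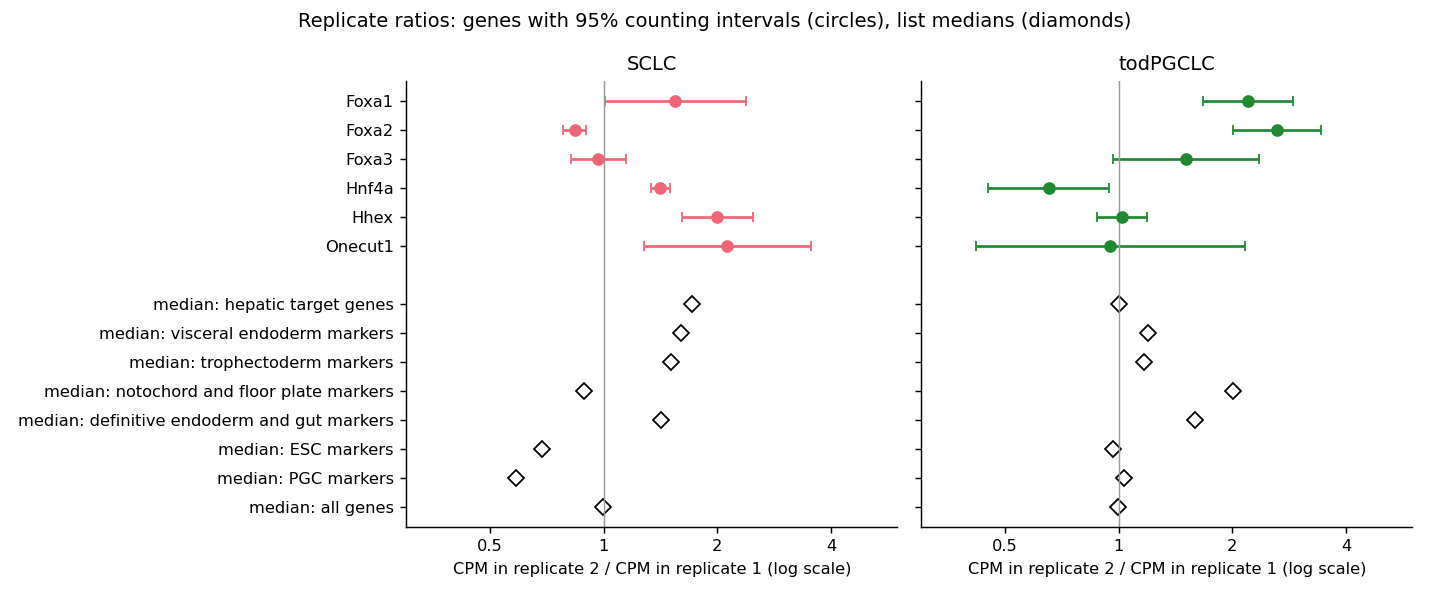
Ratio of CPM in replicate 2 to replicate 1 (horizontal axis, log scale) for 6 members with 95% counting intervals (circles) and as medians of marker lists (diamonds), in SCLCs (left) and todPGCLCs (right). The largest ratios are those of Onecut1 and Hhex in SCLCs (2.13 and 1.996) and of Foxa2 and Foxa1 in todPGCLCs (2.63 and 2.20), and the intervals cover counting error only.

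Among 18 other hepatic and endoderm factors, 14 were tested, and 6 were called higher and 3 lower in SCLCs than in tc;Sf1ESCs, with a median log2 fold change of 0.62 against 0.02 over all genes. In this contrast 24.1% of all genes were called higher and 18.1% lower. Prox1, a homeodomain factor of liver and lymphatic cells, rose from 1.54 and 1.26 to 18.7 and 21.4 CPM (log2 fold change 3.89, SE 0.21). Cebpb (2.90, SE 0.29) and Cebpa (1.94, SE 0.36), leucine zipper factors of liver and fat, also rose. Over tcESCs, Cebpa was at 1.13 and did not pass a test against a 2-fold change. It was at 0.96 without SCLC replicate 2 and at 0.92 without tcESC replicate 1. Its level was 2.23 and 2.75 CPM in SCLCs and 3.41 and 3.16 CPM in todPGCLCs. Foxp1 rose against tc;Sf1ESCs (1.68, SE 0.15), from 3.59 and 3.47 to 11.5 and 10.4 CPM, but had 11.4 and 13.3 CPM in tcESCs (-0.12 in SCLCs over tcESCs, SE 0.14). Nr5a2, the liver receptor homolog and closest relative of Sf1, fell from 171 and 164 CPM to 13.4 and 7.56 CPM (log2 fold change -3.95, SE 0.22), and Tbx3 (-1.42, SE 0.10) and Otx2 (-1.18, SE 0.25) also fell. Otx2 was no longer called without tc;Sf1ESC replicate 2, without SCLC replicate 2 or in a test against a 2-fold change. Among the ONECUT paralogs, Onecut2 was at 3.97 and 2.64 CPM in tc;Sf1ESCs and 3.02 and 4.71 CPM in SCLCs (0.28, SE 0.31, not called), and Onecut3 had 5 and 2 reads in SCLCs. The bile acid receptor gene Nr1h4, named after its values were seen, had 0 reads in both SCLC libraries.

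The 4 GATA and SOX endoderm genes tested had larger changes than most members. Gata4 had 6.60 and 6.65 CPM in tc;Sf1ESCs and 415.5 and 431 CPM in SCLCs, Gata6 1.23 and 1.63 against 181 and 189, Sox17 1.23 and 1.05 against 167 and 159, and Sox7 0.154 and 0.289 against 53.5 and 57.1. Of 6 listed genes these 4 were tested, and their log2 fold changes were 6.05, 7.06, 7.21 and 7.97, each called, where 24.1% of all genes were called higher. Gata5 had 15 and 13 reads and Sox18 12 and 1 reads in SCLCs. Gata4 was called higher in tc;Sf1ESCs than in tcESCs (1.66, SE 0.12) and Sox7 lower (-2.87, SE 0.27). Gata6 was called higher there too (1.44, SE 0.43), but with 5 and 25 reads in tcESCs it was at 0.83 without tcESC replicate 1 and 2.85 without tcESC replicate 2, and the call was lost in 3 of the 4 fits without one library of these lines and with DESeq2. Over tcESCs, todPGCLCs had Gata6 at 3.27 (2.62 without tcESC replicate 1 and 4.64 without tcESC replicate 2) and Gata4 at 0.98, not called. Sox17 was called at 1.75, but was at 0.70 and not called without todPGCLC replicate 2, at 2.37 without todPGCLC replicate 1, and not called without either tcESC library. Sox7 was called lower (-1.18), and without todPGCLC replicate 2 it was at -0.78 and not called.

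Of 40 hepatic target genes, 23 were tested, and 17 were called higher and 2 lower in SCLCs than in tc;Sf1ESCs. The median log2 fold change was 6.26, or 4.74 with the 6 genes at 0 in tc;Sf1ESCs set to their lower bound, against 0.02 over all genes tested. Of all genes tested, 24.1% were called higher and 18.1% lower. Igfbp1, a secreted binding protein of insulin-like growth factors, had 0 reads in the 4 ESC libraries and 113 and 90.9 CPM in SCLCs, at least 910-fold higher than 3 reads per library allow. Ttr, the thyroxine and retinol carrier, was likewise at 0 in ESCs and at 46.8 and 117 CPM (1240 and 3411 reads) in SCLCs. Apoa1 had 37.0 and 68.8 CPM in SCLCs and 0 and 0.0361 CPM in tc;Sf1ESCs, a ratio of summed reads of 2876 with a counting interval of 516 to 113600, and Afp had 22.8 and 48.1 CPM in SCLCs.

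Apob, the core protein of low density lipoprotein, had 2.62 and 1.70 CPM in tc;Sf1ESCs and 50.8 and 143 CPM in SCLCs (log2 fold change 5.54, SE 0.57), and Apom 1.04 and 1.45 against 14.6 and 33.3 CPM. Without SCLC replicate 2 the log2 fold changes were 4.61 for Apob and 3.59 for Apom. The 2 genes called lower were the urea cycle gene Cps1 (-1.63, SE 0.31) and Apoc2 (-1.21, SE 0.16), and Apoc2 did not pass a test against a 2-fold change. Apoe was the most abundant of the list in each group, with 1191 ± 5.61 CPM in SCLCs and 1453 ± 3.44 CPM in tc;Sf1ESCs. Of the 40 genes, 12 and 15 had more than 100 reads in SCLC replicates 1 and 2, among them the clotting factor F2 with 131 and 96.9 CPM. Some genes of mature liver were near 0. In both SCLC libraries 11 of the 40 genes had at most 3 reads, and among these, named after their values were seen, albumin (Alb) had 1 read in each, the iron carrier Trf 1 and 2, and the clotting factor F9 and the bile acid enzymes Cyp7a1 and Cyp8b1 none. Without SCLC replicate 2 the count of called targets was 13 in place of 19, since 6 genes, among them Ambp, F10, Fabp1, Fgb and Pklr, then fell under the filter and were not tested.

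**Figure D5:**
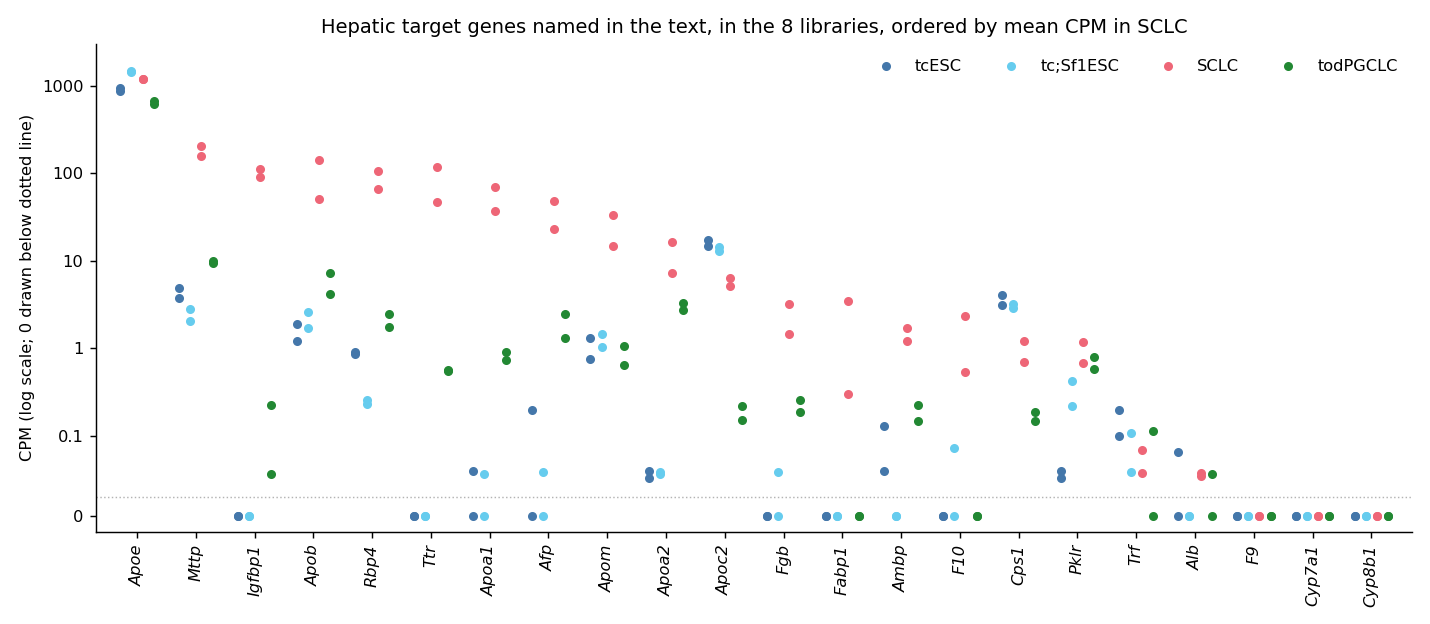
CPM (log scale, with 0 drawn below the dotted line) of the hepatic target genes named in the text, apart from F2, in the 8 libraries, ordered by their mean in SCLCs, with 1 point per library. Lipoprotein and carrier genes such as Mttp (156 and 206 CPM) and Rbp4 (65.7 and 106 CPM) are high in SCLCs and low elsewhere, Apoe is high in each group, and F9, Cyp7a1 and Cyp8b1 are at 0 in all 8 libraries.

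The hepatic targets were counted in the other comparisons as well. Between tc;Sf1ESCs and tcESCs, 2 of the 23 targets tested were called higher and 1 lower, where 11.7% of all genes were called, and without tcESC replicate 2 none of the 3 was called, and the median log2 fold change was 0, or 0.22 with bounds. In todPGCLCs 9 targets were called higher and 3 lower than in tcESCs (median 1.13, or 1.04 with bounds). In that contrast 18.1% of all genes were called higher and 11.2% lower. The summed reads of Apoa2, a protein of high density lipoprotein, gave a ratio of 84.0 (counting interval 22.9 to 699). Between SCLCs and todPGCLCs 20 targets were called higher in SCLCs and none lower, where 19.5% of all genes were called higher and 18.5% lower. These counts share libraries between comparisons and are given side by side.

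Markers of the tissues that use these factors were read in the same libraries. In SCLCs against tc;Sf1ESCs, 24.1% of all genes tested were called higher and 18.1% lower. Both shares stand beside each list of this contrast, here and in the next paragraph. Of 18 visceral endoderm markers, 6 of them also among the hepatic targets, 16 were tested and 15 were called higher and 1 lower in SCLCs than in tc;Sf1ESCs, and their summed level ran from 146.5 to 154 CPM in tc;Sf1ESCs and from 4310 to 6828 CPM in SCLCs. The endocytic receptor gene Cubn alone had 1056 and 2107 CPM in SCLCs and at most 0.521 CPM in ESCs. Lefty1, a Nodal inhibitor of anterior visceral endoderm, was the marker called lower (-3.19, SE 0.40, and from -4.20 to -2.58 without one or the other SCLC library), and Cer1 and Trf had 0 to 2 reads in SCLCs. Of 20 definitive endoderm and gut markers, 12 were tested with 4 higher and 4 lower, among them Sox17 and the villus gene Vil1 (4.87) as higher and Trh (-7.60), Cdx1 (-5.15) and Gsc (-4.95) as lower.

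Of 16 kidney tubule and nephron progenitor markers, 8 were tested with 5 higher and 3 lower, with the cadherin gene Cdh6 at 6.82, and the tubule genes Umod and Slc34a1 had no read in any library. Of 8 notochord and floor plate markers, 5 were tested with 2 higher and 2 lower in SCLCs. T fell to 2 and 7 reads there (log2 fold change -5.80, SE 0.36, and -6.86 without SCLC replicate 2). Of 12 trophectoderm markers, 9 were tested with 6 higher and none lower, with a median log2 fold change of 5.93, against 3.33 over tcESCs and -1.96 between the ESC lines. Krt18 had 22.4 and 30.5 CPM in tcESCs, 0.887 and 0.759 CPM in tc;Sf1ESCs and 374 and 466 CPM in SCLCs, and its log2 fold change in SCLCs was 9.04 over tc;Sf1ESCs and 4.05 over tcESCs. Tpbpa had 35.0 and 74.1 CPM in SCLCs and 0 in the other 6 libraries. Of 10 ESC markers 8 were called lower and 1 higher (Lin28a), and of 10 PGC markers 3 lower and 1 higher (Ddx4). Some genes stand on several lists, and what part the cells behind each list have in the levels of Foxa2, Hnf4a and Foxa3 was not tested.

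In todPGCLCs the same lists were read beside Foxa1 and Foxa2. Over tcESCs, 18.1% of all genes tested were called higher and 11.2% lower. Of 6 notochord and floor plate markers tested, 4 were called higher and 1 lower. T (log2 fold change 3.56, SE 0.45) and Shh (3.901, SE 0.73) were among the higher. The summed level of this list was lower, with 105.2 to 138.6 CPM in todPGCLCs against 214.9 to 225.8 CPM in tcESCs. Cer1 had 73 and 337 reads against 0 in tcESCs. Without todPGCLC replicate 2 the values were 2.73 for T and 2.63 for Shh, and without todPGCLC replicate 1 Shh was at 4.58. Of the kidney list, 6 of 9 were called higher and 2 lower, and the factor gene Lhx1 had 4.90 and 16.8 CPM in the todPGCLC libraries and 0.0394 and 0.0326 CPM in tcESCs. Of 17 visceral endoderm markers tested 12 were called higher and none lower, with Ttr at 15 reads in each library. Of 13 definitive endoderm and gut markers tested, 6 were called higher and 2 lower (median log2 fold change 0.924). Of 10 trophectoderm markers tested, 6 were called higher and none lower (median 1.39).

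The profile of each member over the 8 libraries was compared with those of 14250 genes of at least 1 CPM on average, as the root mean square difference of centred log2 CPM. Nearest to Foxa2 were Rgl3 (0.510), Uba7 (0.568) and Prss12 (0.569), and among the 3 nearest to Foxa1 were Fermt1 (0.378) and Lnx1 (0.414). Among the 3 nearest to Foxa3 were Chst14 (0.197) and Qsox1 (0.213), and nearest to Hnf4a Kdelr3 (0.325), Eps8l2 (0.420) and Col27a1 (0.433). Hhex had the closest neighbours, Faah (0.0960), Naa60 (0.168) and Gm17210 (0.171), on a profile that varied little. No member was among the 3 nearest of another, and Onecut1 and Hnf4g were below the level compared.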

How the data were processed

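The analysis starts from tables of read counts per gene for 8 RNA-sequencing libraries, which the authors deposited as raw counts without normalization. Poly-A RNA was sequenced with strand information. Per the labels, the authors' processing used Trim Galore, STAR 2.4.0, Picard, HTSeq and DESeq2 on GRCm38. The annotation and the strand setting of the counting are not given in the sources used here. Rows that name no gene took 35.6% to 41.6% of reads per library and were left out. Most of these reads aligned to several places, so genes with a close copy can be undercounted. GENCODE M21 gave names and positions for 45143 of 46078 gene IDs and none for 935.

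R 4.3.3 and edgeR 4.0.16 were used, with TMM normalization and quasi-likelihood tests. Comparisons among tcESCs, tc;Sf1ESCs and SCLCs came from one model of their 6 libraries (16481 genes passing a mean count filter of 10), and those with todPGCLCs from a model of all 8 (16707 genes). Adjusted p-values follow Benjamini-Hochberg over all genes of a model, and a call needs a fold above 2 and an adjusted p under 0.05. The SE is the log2 fold change divided by the root of the F statistic. CPM scale counts to the library total, and TPM also use summed exon length. A fold against a group with 0 reads is a lower bound at 3 counts per library. With 1 to 3 reads the ratio of summed reads is given with an exact binomial 95% interval. Both cover counting error only. The samples are described as biological duplicates.

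The members and the gene lists were chosen with earlier results of these data known. Members were fitted with all genes, but since they were selected on these values, their place past or short of a limit is a description. Calls of list genes are likewise not independent tests, and no p is given for either. Named from each list were genes among the 4 largest and 4 smallest log2 fold changes of those called in SCLCs against tc;Sf1ESCs at a mean of 1 CPM or more, together with Onecut2, Onecut3, Nr5a1 and the GATA and SOX genes. Every other gene named was picked after its values were seen, and some genes of the lists are not reported here. Promoters are the 250 bases before RefSeq starts. Alternatives covered the size factors (RLE or totals), the filter (filterByExpr or any count), the libraries entering the model, DESeq2 1.42.0, testing against a 2-fold change, a replicate block, and leaving out single libraries. Fits were tested on simulated data.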

Additional observations from a re-analysis of the deposited data

How the results depend on the processing

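Over the alternatives, 286 of 308 counts stayed within 1.5 times the value reported and 22 did not, and no member past both limits changed direction. With a test against a 2-fold change, tc;Sf1ESCs against tcESCs gave 594 genes, 0 members, 1 hepatic target and 1 other factor. The same test gave 3078 genes, 7 targets and 4 other factors for todPGCLCs against tcESCs. For SCLCs against todPGCLCs, Foxa1 and Onecut1 did not pass it. With every gene of at least 1 count, 5 targets were called between the ESC lines. With any 1 library left out, the counts between the ESC lines ran from 1119 to 2304 genes, from 0 to 5 targets and from 1 to 3 other factors, targets in todPGCLCs against tcESCs from 7 to 14, and members in SCLCs against todPGCLCs from 3 to 5. With no library left out, 29.4% of all genes were called in todPGCLCs against tcESCs and 38.0% in SCLCs against todPGCLCs. Whether the ranges of targets and members in these comparisons follow that of all genes was not tested. In a fit without one library of a pair, the lone library is assumed to vary like the other groups. A gene under the filter in such a fit counts as not called. Apart from the filter and the stricter test, the cause of these changes was not tested.

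The replicate number gave no pairing: the correlation of replicate differences between groups ran from -0.0311 to 0.0652. With the replicate block, 6958, 7024, 1916, 4893 and 6313 genes were called in the 5 comparisons in the order of the report, with 5, 5, 1, 3 and 5 members past both limits, and hepatic targets moved from 3 to 4 between the ESC lines and from 12 to 13 for todPGCLCs. Levels under 3 counts per library (0.0978 to 0.118 CPM), as for Onecut1 in tcESC replicate 2 and for Hnf4g, are limited by depth.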
